A study of Mus musculus with 27 samples.

Results

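The genes described here encode the proteins that hold transmitter in synaptic vesicles and fuse those vesicles with the presynaptic membrane. They were chosen by name, as 49 mouse symbols that cover vesicle proteins, SNAREs and their regulators, calcium sensors, Rab3 proteins and active zone scaffolds. All 49 were matched by Ensembl identifier among the 52636 gene identifiers counted. RNA came from frontal cortex and striatum of mice about 2.5 months old on the 129S1 background. Wild-type (+/+) mice gave 6 frontal cortex libraries (3 female, 3 male) and 7 striatum libraries (3 female, 4 male). Mice homozygous for the Igf2enh-/- allele gave 6 frontal cortex libraries (3 female, 3 male) and 8 striatum libraries (4 female, 4 male). This allele lacks an intergenic enhancer fragment between H19 and Igf2 in every cell of the body and keeps a single loxP site left by excision of the selection cassette with Hprt-CRE. Both tissues are dissected pieces that hold many cell types, and no label tells which libraries of the 2 regions came from the same mouse.

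Vesicles are filled, docked and primed at the active zone, where RIM, Munc13, ELKS, Bassoon, Piccolo and liprin proteins sit beside calcium channels. A SNARE bundle of synaptobrevin on the vesicle with syntaxin and SNAP-25 on the plasma membrane drives fusion, complexin holds the bundle ready, and synaptotagmins or DOC2 proteins sense the calcium that triggers it. Most of these proteins come as small families of paralogs, and neurons of the cortex (chiefly glutamatergic projection cells) and of the striatum (chiefly GABAergic medium spiny cells) use them in different combinations. The comparisons below ask how the transcripts of this machinery differ between the 2 regions, which paralogs trade places, and whether loss of the enhancer changed them in either region.

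Totals ran from 24929068 to 30979248 counts per frontal cortex library and from 23686945 to 33926904 per striatum library, and the least counted member had 3034 counts over the 27 libraries. Levels are given as CPM, the counts scaled to a common library size, after TMM normalization over all 27 libraries. All 9 medium spiny neuron markers (among them Drd1, Drd2, Adora2a and Ppp1r1b) were higher in every striatum library than in any frontal cortex library, and none was at 0 in either region. Their sum ran from 178 to 259 CPM in frontal cortex and from 3759 to 10500 CPM in striatum. The sum of 8 cortical projection neuron markers (among them Slc17a7, Tbr1 and Neurod6) ran from 2440 to 2720 CPM in frontal cortex, and 7 of the 8 were lower in every striatum library. Within striatum this sum varied widely, from 65.2 CPM in library 22 to 1274 CPM in library 20, both wild-type males. Libraries 23 (Igf2enh-/-, 959 CPM) and 16 (wild-type, 870 CPM) followed library 20. Oligodendrocyte markers summed to between 937 and 1998 CPM in frontal cortex and between 4607 and 10020 CPM in striatum, again highest in library 20, whereas 6 general neuron markers summed to overlapping ranges (2384 to 2914 CPM and 2065 to 2575 CPM). Library 15 stood apart by its choroid plexus genes (4501 CPM summed over 6 genes, against a striatum median of 216 CPM). Among frontal cortex libraries, library 1 (Igf2enh-/-) held the lowest medium spiny, cortical and oligodendrocyte sums and the lowest levels of several members, among them Snap25 (2549 CPM), Cplx2 (1411 CPM) and Vamp1 (89.3 CPM). In bulk tissue of this kind, fewer cells of a type and less RNA per cell cannot be told apart.

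Per kilobase of exon, the most abundant members in frontal cortex were Snap25, the plasma membrane SNARE of fast release, at a median level of 471 CPM per kb (lowest library 375, highest 496), followed by the complexin gene Cplx2 at 366, its paralog Cplx1 at 326 and the vesicle SNARE Vamp2 at 315 CPM per kb. The ranges of each of these neighbours overlapped with the next, and the first gap lay between Vamp2 and synaptophysin (Syp, 272 CPM per kb). This order depended on the length used, since per kilobase of the longest transcript Vamp2 (544 CPM per kb), Syp (498 CPM per kb) and Syt1 (394 CPM per kb) came before Cplx2 and Cplx1. In striatum Cplx2 stood alone at the top per kilobase of exon, with a median level of 454 CPM per kb (369 to 492), above Snap25 at 221 CPM per kb (195 to 331). Below them Vamp2 (207 CPM per kb) and Cplx1 (202 CPM per kb) overlapped with Snap25. Per kilobase of the longest transcript Cplx2 kept rank 1, with Vamp2 at rank 2 and Snap25 at rank 3. Overlap of their ranges was not compared for that length. The lowest levels were those of Syt10, at 0.477 CPM per kb in frontal cortex, and Syn3, at 1.10 CPM per kb in striatum. Per kilobase of its longest transcript Syn3 was at 2.83 CPM per kb in striatum, above Cplx3 at 1.57 CPM per kb.

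Most of the machinery was less abundant in striatum. All 49 members passed the filter of a mean of at least 1 CPM over the 27 libraries. Syt10, with a frontal cortex median under 1 CPM, passed it through its striatum counts and is counted among the higher members below. By edgeR's quasi-likelihood test, at an adjusted p under 0.05, 33 members were lower in striatum and 10 were higher, and 6 did not pass. Over all 14909 genes tested, 77.5% passed this threshold, 38.5% lower and 38.9% higher, against 87.8% of the members, 67.3% lower and 20.4% higher. The median log2 fold change (striatum over frontal cortex) was -0.57 over the members and 0.01 over all genes. With a change of at least 2-fold required as well, 13 members were lower (background 6.08%) and 6 were higher (background 6.0%). Counting libraries in place of p-values, 26 members were lower in every striatum library than in any frontal cortex library (background 13.8%), 5 were higher in every striatum library (background 12.6%), and the ranges of the other 18 overlapped (26.3% of all genes did not overlap). The 2-fold limit fell inside a run of similar values, with Napb, Snap25 and Rims1 (which fell by 1.00, 1.01 and 1.04 on the log2 scale) just within it and Syn2, Rph3a and Ppfia2 (-0.97, -0.97 and -0.96) just outside.

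**Figure D1:**
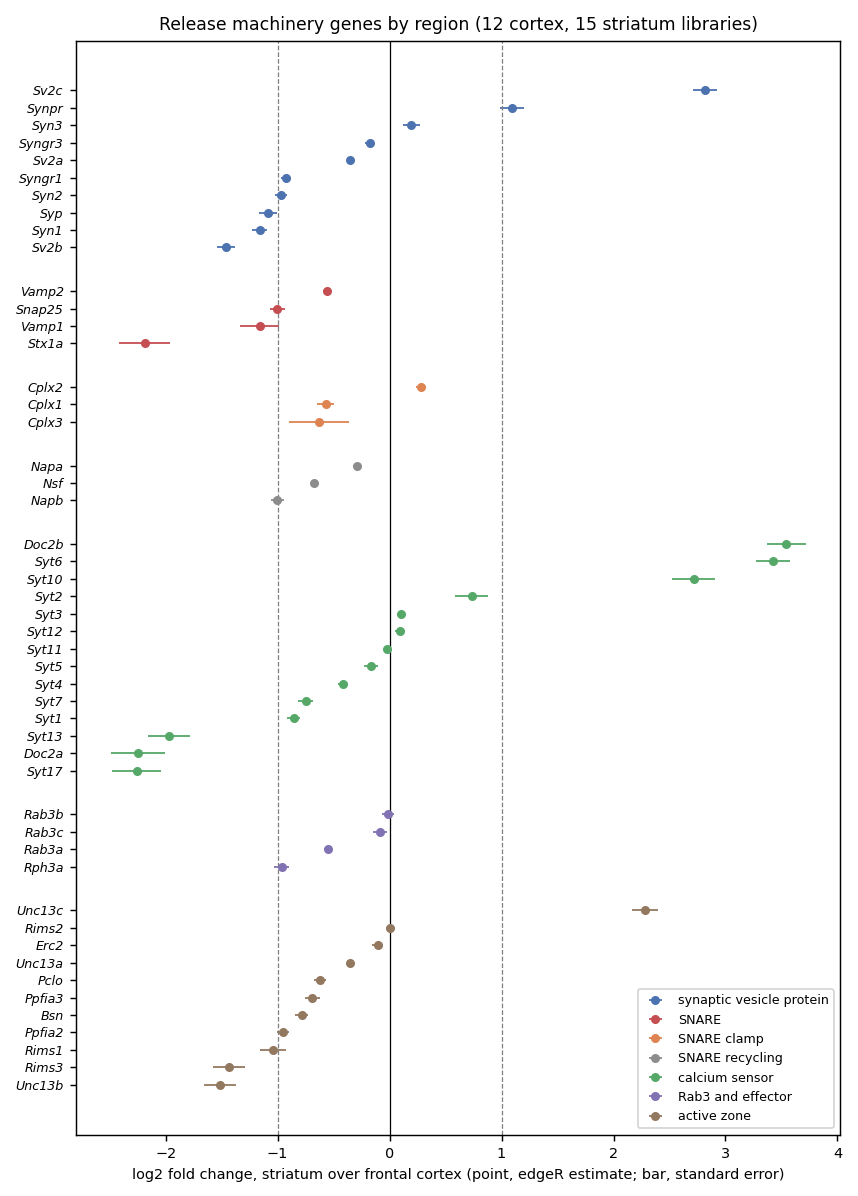
Log2 fold change of each of the 49 members, striatum over frontal cortex, grouped by role, with the edgeR estimate as a point and its standard error as a bar over 12 frontal cortex and 15 striatum libraries; dashed lines mark a 2-fold difference. Most points lie left of 0, and the 6 members right of the upper dashed line are Doc2b, Syt6, Sv2c, Syt10, Unc13c and Synpr.

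All 4 SNARE genes were lower in striatum. Stx1a (chromosome 5, 135023482 to 135051100 in GRCm38), which encodes the neuronal plasma membrane syntaxin, had the largest difference of the 4. Its level ran from 289 to 357 CPM with a median of 330 CPM in frontal cortex, and from 26.6 to 197 CPM with a median of 58.2 CPM in striatum. The ranges did not overlap, and the fitted level was 4.56-fold lower in striatum (log2 fold change -2.19, standard error 0.229, edgeR adjusted p = 3.12e-09). The lowest and the highest striatum libraries for Stx1a were libraries 22 and 20, the same that held the lowest and the highest sum of cortical projection neuron markers. Snap25 ran from 2549 to 3366 CPM (median 3197) in frontal cortex and from 1321 to 2246 CPM (median 1498) in striatum, a log2 fold change of -1.01 with no overlap. Vamp1, the form of fast-spiking and motor circuits, had a median of 176 CPM in frontal cortex (89.3 to 210) and 65.2 CPM in striatum (39.2 to 196), a log2 fold change of -1.16 (standard error 0.171) with overlapping ranges, since library 20 alone reached 196 CPM and library 1 of the frontal cortex fell to 89.3 CPM. Vamp2, the main vesicle SNARE of the forebrain, fell by 0.56 on the log2 scale with no overlap.

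Of the 3 genes that take used bundles apart, Nsf (the ATPase) fell by 0.67, Napa (alpha-SNAP) by 0.29 and Napb (beta-SNAP, the brain form) by 1.00 on the log2 scale. Napb had 623 to 741 CPM (median 676) in frontal cortex and 272 to 404 CPM (median 330) in striatum, without overlap. Among complexins, Cplx1 was lower (log2 fold change -0.57) and Cplx2 higher (0.28, standard error 0.0458) in striatum. Cplx2 had medians of 1803 CPM in frontal cortex and 2238 CPM in striatum and ranges that overlapped. Cplx3, a complexin of retina and deep cortical cells, was low in both regions (medians 8.39 and 4.46 CPM), and its call (log2 fold change -0.63, adjusted p = 0.0338 in edgeR) was lost when library 22, 27 or 11 was left out. The call was also lost in wild-type libraries alone, in females alone and in males alone.

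Among vesicle membrane proteins, Sv2c and Synpr were higher in striatum while their paralogs were lower. SV2 proteins are glycosylated transporter-like proteins of every vesicle, and Sv2a was 1.28-fold lower in striatum (log2 fold change -0.35) with no overlap. Sv2b (chromosome 7, 75114894 to 75309262) ran from 541 to 707 CPM (median 628) in frontal cortex and from 149 to 299 CPM (median 221) in striatum. Sv2c (chromosome 13, 95959443 to 96132577), known for its place in basal ganglia, ran the other way, from 28.6 to 44.7 CPM (median 41.1) in frontal cortex to between 135 and 379 CPM (median 287) in striatum. Neither gene's ranges overlapped, the log2 fold changes being -1.46 (standard error 0.0777) and 2.82 (standard error 0.110), and Sv2c had the smallest adjusted p of all members (2.50e-17 in edgeR). As shares of the summed SV2 level per kilobase, Sv2c held a median of 3.71% in frontal cortex and 31.5% in striatum, while Sv2b went from 43.7% to 18.4% and Sv2a from 53.0% to 49.9%.

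The 250 bases before the RefSeq start of these 2 opposed paralogs and of Syn1, whose stretch held 2 of the 3 searched motifs, are printed here (GRCm38.p6, minus strand, 5′ to 3′), with capitals marking a match to the left or right part of RE1, the element bound by the neuronal repressor REST (TTCAGCACC and GGACAG) or to the cyclic AMP response element (TGACGTCA), on either strand. Sv2b lies at chr7:75309263-75309512 (1 of 4 starts given), Sv2c at chr13:96132578-96132827 and Syn1 at chrX:20920919-20921168.
Sv2b: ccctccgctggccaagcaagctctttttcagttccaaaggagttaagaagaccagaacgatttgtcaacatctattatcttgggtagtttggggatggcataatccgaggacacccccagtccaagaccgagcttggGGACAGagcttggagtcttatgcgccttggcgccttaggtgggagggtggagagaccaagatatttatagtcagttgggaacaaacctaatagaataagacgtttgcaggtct
Sv2c: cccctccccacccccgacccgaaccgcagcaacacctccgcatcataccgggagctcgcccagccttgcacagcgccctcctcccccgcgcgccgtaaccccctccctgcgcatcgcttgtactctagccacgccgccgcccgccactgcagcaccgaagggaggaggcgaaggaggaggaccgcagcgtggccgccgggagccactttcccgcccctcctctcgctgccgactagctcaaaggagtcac
Syn1: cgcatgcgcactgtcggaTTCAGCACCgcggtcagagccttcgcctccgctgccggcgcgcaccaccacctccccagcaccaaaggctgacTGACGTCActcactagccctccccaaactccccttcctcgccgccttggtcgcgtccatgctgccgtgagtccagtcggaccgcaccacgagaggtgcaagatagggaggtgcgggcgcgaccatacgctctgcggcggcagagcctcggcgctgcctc
The Sv2b stretch had a GC content of 48.8% and held GGACAG once, whereas the Sv2c stretch had a GC content of 70.8% and held none of the 3 motifs. Promoters were given for 36 of the 49 members, as 48 windows of 300 bases. TTCAGCACC occurred in 3 of the 48 (6.25%, in Syn1, Ppfia3 and Unc13a) against 0.371% of all 32851 promoters of the same length. GGACAG occurred in 27.1% of the member windows against 22.2% of all, and TGACGTCA in 4.17% (Syn1 and Napa) against 1.79%. The members' promoters were also richer in GC (median 62.3% against 52.7%), and these matches describe letters in a window only.

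The synapsins coat the vesicle cluster. Syn1 ran from 829 to 895 CPM (median 857) in frontal cortex and from 291 to 493 CPM (median 368) in striatum, with the ends of the striatum range again in libraries 22 and 20. Syn1 (log2 fold change -1.16, no overlap) and Syn2 (-0.97, no overlap) were lower in striatum, while the scarce Syn3 had a log2 fold change of 0.19 (adjusted p = 0.0260 in edgeR) that did not pass in wild-type libraries alone, in females alone or in males alone. A stretch of 14.1% of the Syn3 exons lies opposite Timp3, and the strand setting of the counts is not given in the sources used here, so reads of the pair cannot be told apart. Synaptophysin (Syp), the most used vesicle marker, had 1356 to 1504 CPM (median 1415) in frontal cortex and 514 to 871 CPM (median 612) in striatum, a log2 fold change of -1.09. Its paralog synaptoporin (Synpr) rose by 1.10, from a median of 127 CPM (103 to 179) to a median of 295 CPM (120 to 330). The Synpr ranges overlapped through library 20 alone, the lowest striatum library at 120 CPM. Of the Syp exons, 16.8% lie opposite Gm14703. The synaptogyrins, vesicle proteins that also span the membrane several times, were lower by 0.93 for Syngr1 and by 0.18 for Syngr3.

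Calcium sensors held both the largest rises and the largest falls. Doc2b (chromosome 11, 75768270 to 75796060), a soluble sensor linked to spontaneous and asynchronous release, went from a median of 9.17 CPM (6.12 to 20.5) in frontal cortex to 131 CPM (54.8 to 162) in striatum. Its paralog Doc2a (chromosome 7, 126846983 to 126852705), the form of glutamatergic terminals, went from 47.9 CPM (36.0 to 69.0) to 8.91 CPM (2.26 to 20.0). Neither pair of ranges overlapped, and the log2 fold changes were 3.54 (standard error 0.172), an 11.7-fold rise, and -2.25 (standard error 0.242), a 4.74-fold fall. Of the Doc2a exons, 33.9% lie opposite Ino80e, so reads of the pair cannot be told apart without strand. The share of Doc2a in the summed DOC2 level per kilobase was 88.5% in frontal cortex (78.4% to 90.8%) and 9.60% in striatum (2.61% to 31.1%).

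Among 12 synaptotagmins, 4 were higher, 6 were lower and 2 did not pass. Syt6 (chromosome 3, 103575245 to 103645567) rose 10.8-fold (log2 fold change 3.43, standard error 0.151), from 11.6 to 27.4 CPM (median 18.2) in frontal cortex to between 110 and 258 CPM (median 221) in striatum. Its relative Syt10 rose 6.57-fold but stayed scarce, with a median of 0.880 CPM (0.529 to 1.66) in frontal cortex and 6.31 CPM (2.27 to 9.09) in striatum. The frontal cortex median of Syt10 lay under 1 CPM, so it entered the region test through its striatum counts. Syt6 and Syt10 belong with Syt3 to a group of synaptotagmins joined in pairs by disulphide bonds, and Syt3 itself moved by only 0.10 on the log2 scale. The falls were led by Syt17, a non-classical member of the family without a membrane anchor of the usual kind, which had 41.1 to 71.0 CPM (median 50.0) in frontal cortex and 4.59 to 22.6 CPM (median 9.38) in striatum. Syt13, another non-classical form, had 284 to 317 CPM (median 295) and 38.3 to 170 CPM (median 65.6). Neither gene overlapped between regions, with log2 fold changes of -2.26 (standard error 0.218) and -1.97 (standard error 0.192). The main fast sensor of the forebrain, Syt1, fell by 0.86, and Syt7, which supports slower and facilitated release, by 0.75. Syt2, the fast sensor of inhibitory fast-spiking cells and hindbrain, was higher by 0.73 with overlapping ranges (21.9 to 99.7 CPM in frontal cortex, where library 1 was lowest, and 93.0 to 179 CPM in striatum). Syt4 fell by 0.41 and Syt5 by 0.16, whereas Syt11 (log2 fold change -0.02, adjusted p = 0.372 in edgeR) and Syt12 (0.09, adjusted p = 0.0650 in edgeR) did not pass. The Syt5 call did not hold with libraries 15, 20 and 22 left out, with total count scaling, in wild-type libraries alone, in females alone or in males alone, and 17.2% of the Syt12 exons lie opposite another transcript.

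At the active zone 8 of 11 genes were lower and 1 was higher. Munc13 proteins prime docked vesicles, and the 3 genes each went their own way. Unc13a, the main form, was lower by 0.35, Unc13b by 1.52 and Unc13c was higher by 2.28 on the log2 scale. Unc13b (chromosome 4, 43046193 to 43264873) had 65.0 to 77.2 CPM (median 72.4) in frontal cortex and 14.8 to 44.1 CPM (median 21.7) in striatum, while Unc13c (chromosome 9, 73479422 to 74008155) had 27.2 to 49.01 CPM (median 36.7) and 97.9 to 258 CPM (median 191). Neither gene overlapped between regions, and Unc13c went from a median of 7.57% to 36.4% of the summed Munc13 level per kilobase. These shares used the exon union, which for Unc13b (13507 bases) is longer than its longest transcript (6354 bases). Among RIM scaffolds, which tether vesicles to calcium channels, Rims1 ran from 261 to 361 CPM (median 339) in frontal cortex and from 110 to 302 CPM (median 157) in striatum. Its log2 fold change was -1.04, with an overlap made by library 20 at the top of the striatum range. Rims3, a short form that lacks most RIM domains, ran from 258 to 377 CPM (median 285) to between 77.9 and 255 CPM (median 95.7). Its ranges did not overlap (log2 fold change -1.44), although library 20 came close at 255 CPM. Rims2 did not differ detectably (log2 fold change 0.00, standard error 0.0401), nor did the ELKS gene Erc2 at the threshold used (-0.11, adjusted p = 0.0535 in edgeR). The giant scaffolds Bsn and Pclo fell by 0.79 and 0.62, and the liprin-alpha genes Ppfia2 and Ppfia3 by 0.96 and 0.69. Of the Rab3 group, which guides vesicles to the RIM scaffold, Rab3a fell by 0.55 and the effector rabphilin (Rph3a) by 0.97. Rab3b (log2 fold change -0.02) and Rab3c (-0.09) did not pass.

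Ratios between paralogs within a library do not depend on library size, and gene length cancels when regions are compared. Of 32 pairs within families, 30 differed between regions (permutation test, two-sided, 100000 resamples, adjusted over the 32 pairs), 17 by at least 1 on the log2 scale, and for 20 pairs no striatum library overlapped with a frontal cortex library. Many pairs share a gene, as Sv2a to Sv2c and Sv2b to Sv2c do, so these counts are not counts of separate shifts. How often pairs of other genes differ was not measured. Of all single genes, 77.5% passed between regions by edgeR and 26.3% did not overlap, so many passing pairs are no trait of paralogs alone. The largest shift was that of Doc2a to Doc2b, whose mean log2 count ratio was 2.25 ± 0.391 (SD, n = 12) in frontal cortex and -3.80 ± 1.20 (SD, n = 15) in striatum, a difference of -6.05 (permutation p = 1e-05, the smallest these resamples can give). This count ratio was positive in every frontal cortex library and negative in every striatum library. Mean count ratios also changed sign for Syt3 to Syt6 (1.49 ± 0.422 and -1.84 ± 0.350), Sv2b to Sv2c (3.95 ± 0.177 and -0.32 ± 0.511), Unc13b to Unc13c (0.95 ± 0.228 and -2.90 ± 0.808), Syt12 to Syt17 (-0.19 ± 0.282 and 2.32 ± 0.841) and Rab3a to Rab3c (0.25 ± 0.189 and -0.21 ± 0.269; all SD, n = 12 and 15). The sign of a count ratio, unlike the regional difference, depends on the lengths of both genes. Per kilobase of the exon union, Unc13b and Unc13c had overlapping levels in frontal cortex (medians 5.36 and 5.53 CPM per kb). Per kilobase of the longest transcript, Unc13b ranked 41 and Unc13c 44 among the members there. Which of the pair was lower in frontal cortex thus depended on the length used. For Sv2a to Sv2c the difference was -3.16, for Unc13a to Unc13c -2.62, for Syt3 to Syt10 -2.60 and for Syp to Synpr -2.19. In these 4 pairs the second gene gained on the first but stayed behind it in counts on average. Syt1 to Syt2 (-1.65), Syn1 to Syn3 (-1.36), Syn2 to Syn3 (-1.15) and Rims1 to Rims2 (-1.09) moved in the same sense. The other 5 pairs had positive differences, namely Syt12 to Syt17 (2.51), Rims2 to Rims3 (1.49), Unc13a to Unc13b (1.24), Cplx2 to Cplx3 (1.20, with overlap) and Sv2a to Sv2b (1.12). Only Cplx1 to Cplx3 (0.34, permutation p = 0.245) and Rab3b to Rab3c (0.07, permutation p = 0.446) did not pass among the 32 pairs.

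**Figure D2:**
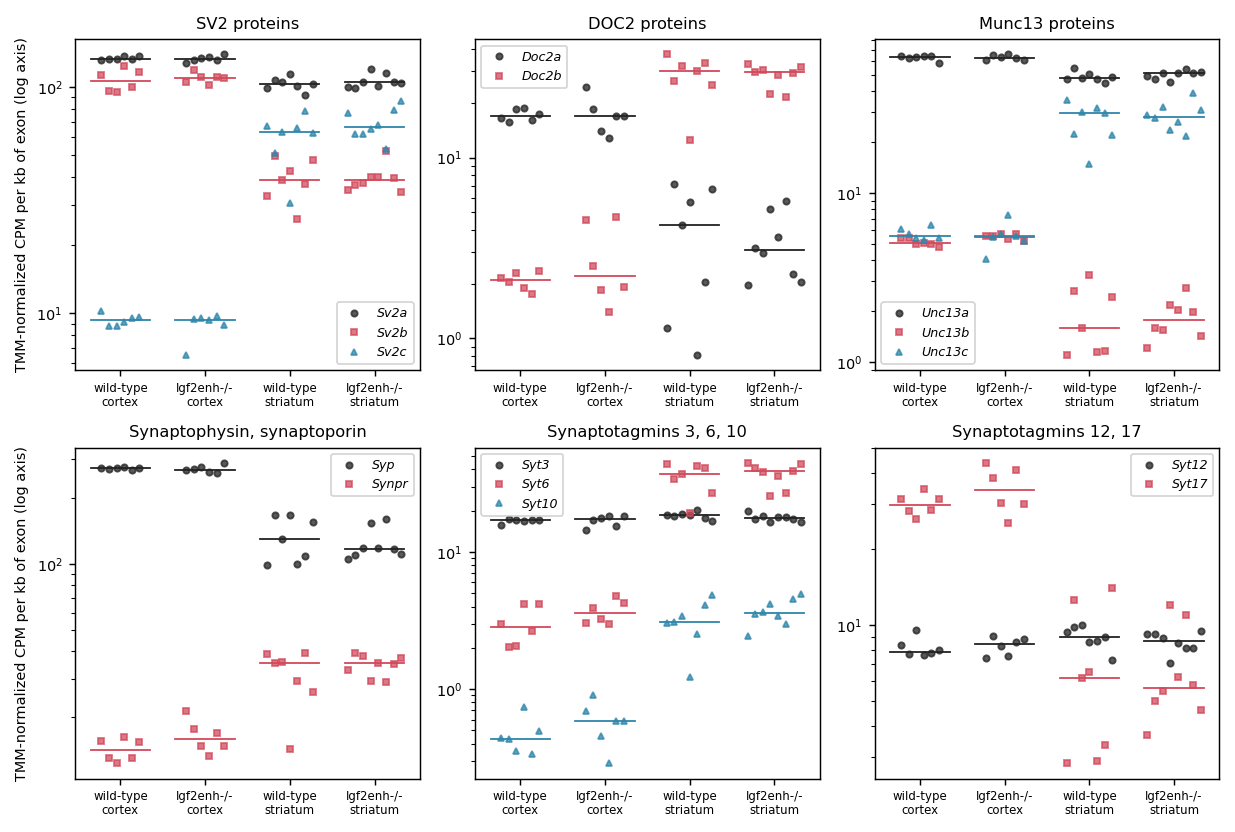
Level of paralogs in each of the 27 libraries, as TMM-normalized CPM per kilobase of exon on a log axis, with a bar at the median of each of the 4 groups. Doc2a lies above Doc2b in every frontal cortex library and below it in every striatum library, the striatum medians of Sv2c, Unc13c and Syt6 lie above those of Sv2b, Unc13b and Syt3, and the genotypes of a region overlap.

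**Figure D3:**
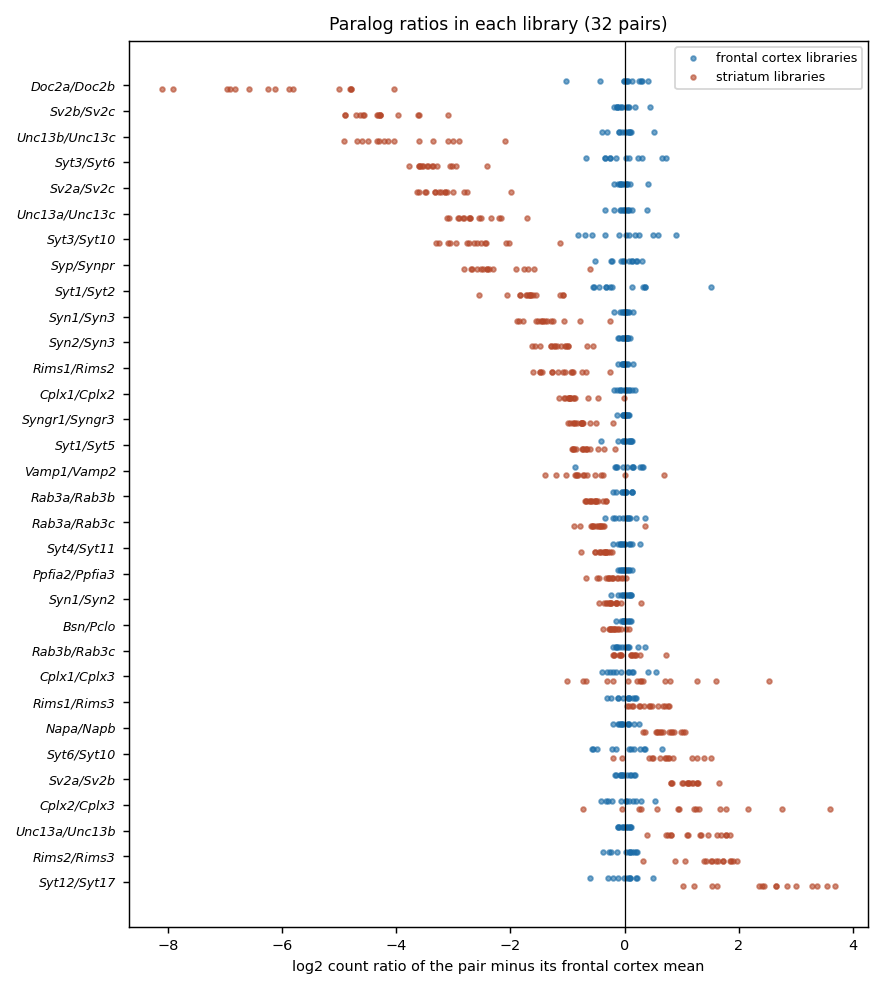
Log2 count ratio of each of 32 paralog pairs in each library, minus the frontal cortex mean of the pair, with the pairs ordered by the regional difference (blue, 12 frontal cortex libraries; red, 15 striatum libraries). The red points lie farthest left for Doc2a/Doc2b (mean difference -6.05) and farthest right for Syt12/Syt17 (2.51).

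Within striatum, some of these members had extreme levels in the libraries with the highest or lowest cortical projection neuron marker sum. Library 20, with the highest of these sums, also held the lowest medium spiny neuron marker sum in striatum (3759 CPM). Of the 13 members that were at least 2-fold lower in striatum, 8 had their highest striatum level in library 20 and 5 their lowest in library 22, and all 6 members that were at least 2-fold higher had their lowest level in library 20. Of all 49 members, 16 were highest and 12 lowest in library 20, and 12 were lowest in library 22. The share over all genes was not counted, so these counts do not set the 2-fold members apart. Stx1a was 197 CPM in library 20, 128 in library 23 and 123 in library 16, the 3 libraries with the highest marker sums, against 26.6 CPM in library 22 and 34.3 CPM in library 14, the 2 with the lowest. Doc2b was 54.8, 94.4 and 116 CPM in libraries 20, 23 and 16, and 131 and 162 CPM in libraries 22 and 14. Vamp1 was 196 and 119 CPM in libraries 20 and 23 but 63.0 CPM in library 16, below the 76.4 CPM of library 22. It thus did not follow the cortical marker sum throughout. With libraries 15, 20 and 22 left out together the counts of 2-fold members were 13 lower and 6 higher, as in the whole set. The lower members changed, since Napb (log2 fold change -0.976) left the list and Rph3a (-1.002) entered it. Over all 14882 genes then tested, 929 were at least 2-fold lower and 881 higher. Stx1a and Doc2b had log2 fold changes of -2.26 and 3.60. This fit leaves out the highest and the lowest cortical marker sum at once, so it cannot show dependence on that sum. Stx1a was at -2.357 without library 20 alone and at -2.116 without library 22 alone. Doc2b was at 3.603 and 3.525. The part of cell composition in the regional differences was not tested.

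**Figure D4:**
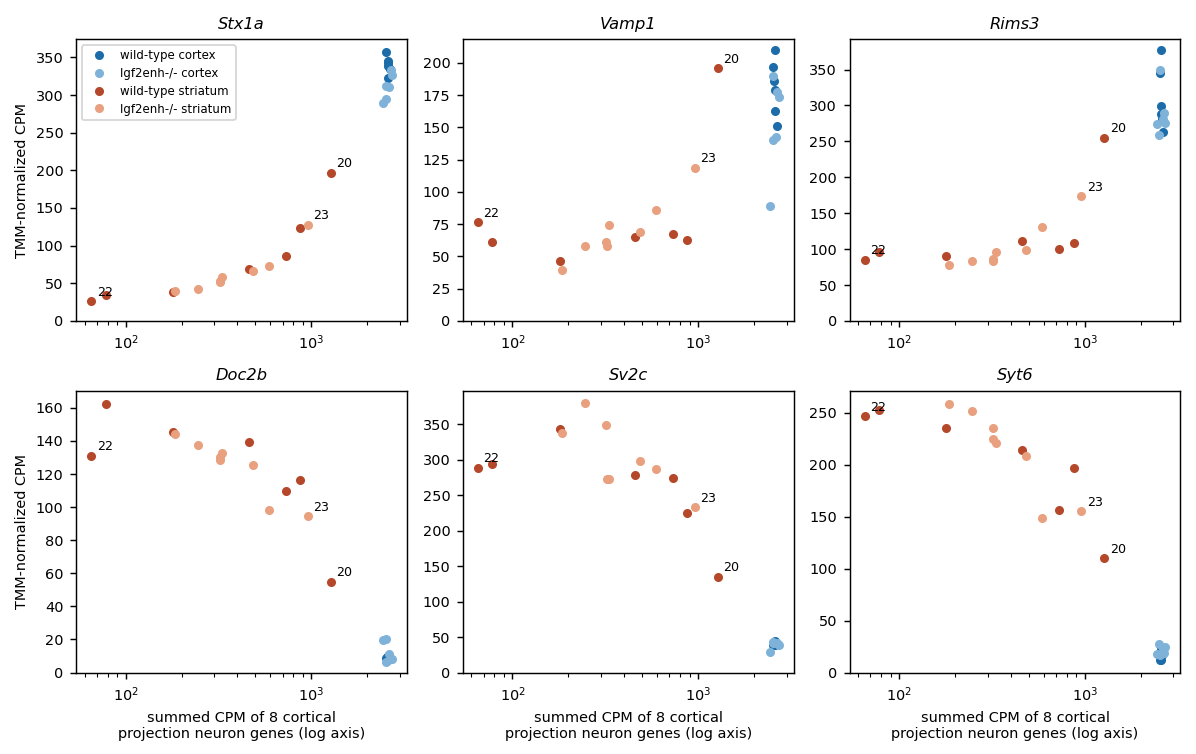
Level of 6 members (TMM-normalized CPM) against the summed CPM of 8 cortical projection neuron genes (log axis) in each library, with libraries 20, 22 and 23 numbered. Within striatum Stx1a runs up from 26.6 CPM in library 22 to 197 CPM in library 20, and Doc2b, Sv2c and Syt6 are lowest in library 20.

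Genes that act beside this machinery were also more often lower than higher. Of 67 related genes (other syntaxins, Munc18 proteins, clathrin and its adaptors, dynamins, endophilins, synucleins and others), 45 were lower and 16 higher in striatum (background 38.5% and 38.9%), with a median log2 fold change of -0.26 (all genes 0.01). Those at least 2-fold lower were 9 (background 6.08%), and 0 were 2-fold higher (background 6.0%). They were Cadps2 (-1.70), a vesicle priming factor, Stxbp6 (-1.36), the SNARE-binding protein amisyn, Sncb (-1.33), beta-synuclein, Sh3gl2 (-1.25), endophilin A1, Apba2 (-1.25), the Munc18-binding adaptor Mint2, Snap91 (-1.15), the clathrin adaptor AP180, Rims4 (-1.12), a short RIM, Rab3d (-1.07) and Dnm1 (-1.06), the neuronal dynamin that pinches off vesicles. The cell type markers given above differed between the same libraries, and their part in these values was not tested.

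Both genotypes gave the same regional picture when fitted apart. In wild-type libraries alone 41 members passed (31 lower and 10 higher; background 65.6%, with 32.6% lower and 33.0% higher), and in Igf2enh-/- libraries alone 42 passed (33 lower and 9 higher; background 68.2%, with 33.3% lower and 34.9% higher). Doc2b had a log2 fold change of 3.76 in wild-type and 3.34 in Igf2enh-/- libraries, Sv2c 2.68 and 2.97, Syt6 3.55 and 3.32, Stx1a -2.06 and -2.30, and Syt17 -2.12 and -2.40. The region by genotype term, which tests whether these differ, called 0 of 49 members in edgeR's quasi-likelihood test (background 0.0%), and 0 had an unadjusted p under 0.05 (background 2.9%). DESeq2, limma-voom and the likelihood ratio test of edgeR also called 0 members, and 0 of all 14909 genes. The smallest unadjusted p was that of Rph3a (0.171).

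No member differed detectably by genotype in frontal cortex. Of 48 members tested (Syt10 did not reach 1 CPM in all of them), 0 passed the edgeR quasi-likelihood test, against 0.38% of all 13936 genes. DESeq2, limma-voom and edgeR's likelihood ratio test called 0 members as well, against 242, 58 and 232 of all 13936 genes. An unadjusted p under 0.05 was found for 4 members (background 13.5%), and the median log2 fold change (Igf2enh-/- over wild-type) was -0.01 over the members and 0.00 over all genes. No member separated the genotypes without overlap (background 1.31%). The smallest p belonged to Stx1a, which ran from 323 to 357 CPM (median 341) in wild-type and from 289 to 333 CPM (median 311) in Igf2enh-/- mice. The ranges overlapped, at -0.13 ± 0.0388 on the log2 scale (estimate and standard error; edgeR adjusted p = 0.160). Unc13b ran from 65.0 to 73.7 CPM (median 68.2) and from 70.1 to 77.2 CPM (median 75.1), a log2 fold change of 0.10 (adjusted p = 0.204 in edgeR). Syt6 ran from 11.6 to 23.9 CPM (median 16.3) and from 17.2 to 27.4 CPM (median 20.6), a log2 fold change of 0.32 (adjusted p = 0.364 in edgeR). These differences were all within overlapping ranges. Syn3 (10.3 to 11.8 CPM with a median of 11.1, and 11.1 to 12.8 CPM with a median of 12.1) had a log2 fold change of 0.12, and Rph3a (594 to 655 CPM with a median of 639, and 617 to 720 CPM with a median of 689) of 0.09, with adjusted p of 0.371 and 0.380 in edgeR. Without the filter on low counts, Syt6 passed (adjusted p = 0.0425 in edgeR), as did 459 of all 33060 genes then tested, Syt6 included.

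In striatum the genotypes could not be told apart by these genes either. Of 48 members tested (Cplx3 fell under the filter), 0 passed in edgeR's quasi-likelihood test, against 0.036% of all 13875 genes. In DESeq2, limma-voom and edgeR's likelihood ratio test 0 members passed, against 112, 3 and 56 of all 13875 genes. There were 0 members with an unadjusted p under 0.05 (background 10.0%), and the median log2 fold change was -0.03 over the members and 0.00 over all genes. No member separated the genotypes without overlap (background 0.209%). Rab3c had the smallest p. Its level ran from 243 to 409 CPM (median 367) in wild-type and from 366 to 457 CPM (median 388) in Igf2enh-/- mice, or 0.17 ± 0.0888 on the log2 scale (estimate and standard error; edgeR adjusted p = 0.550). The ranges overlapped, with library 20 alone at the low end. Rab3a ran from 310 to 369 CPM (median 340) and from 295 to 348 CPM (median 314), a log2 fold change of -0.09. Syn3 ran from 8.00 to 15.7 CPM (median 12.3) and from 11.4 to 17.4 CPM (median 13.9), a log2 fold change of 0.19. Neither gene's groups stood apart. Without library 20 the log2 fold changes of Rab3c and Syn3 were 0.10 and 0.11. Vamp2 (728 to 947 CPM with a median of 853, and 737 to 867 CPM with a median of 772) had a log2 fold change of -0.09 and Syt11 (769 to 877 CPM with a median of 838, and 779 to 830 CPM with a median of 797) of -0.05. Without library 16 the Vamp2 value was -0.050, and without library 20 the Syt11 value was -0.034. Adjusted p for Rab3a, Syn3, Vamp2 and Syt11 over all 15 libraries ran from 0.613 to 0.706 in edgeR. The cortical marker sum ran from 65.2 to 1274 CPM in wild-type and from 184 to 959 CPM in Igf2enh-/- striatum libraries, and its part in the genotype values was not tested further than by the following fit. With the log2 marker sum as a covariate, an alternative chosen after seeing the data, 0 members passed and 7 had an unadjusted p under 0.05 (background 0.418% and 16.4%). With libraries 20 and 22 left out together, 0 passed and 1 had an unadjusted p under 0.05 (background 0.043% and 11.1%).

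**Figure D5:**
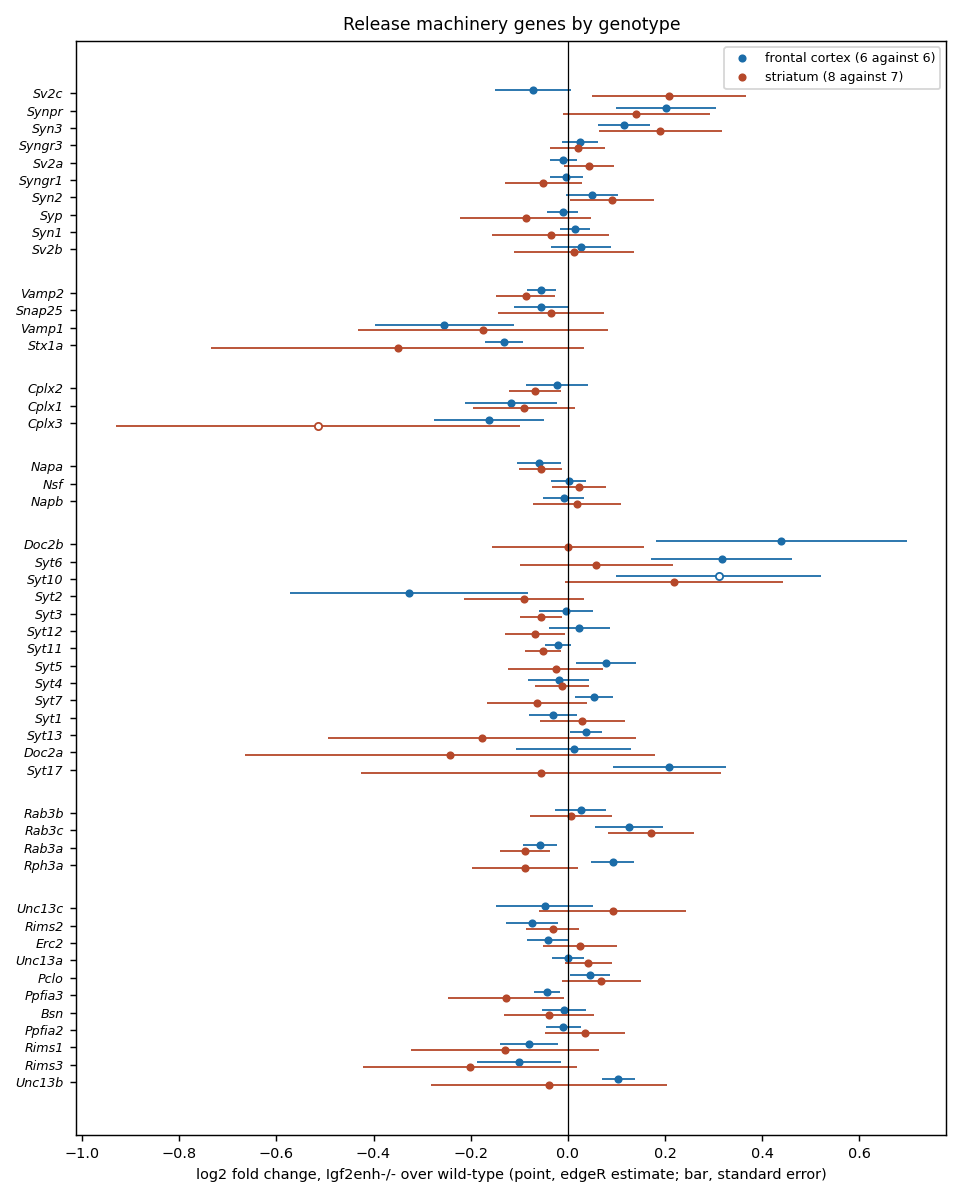
Log2 fold change of each member, Igf2enh-/- over wild-type, in frontal cortex (blue, 6 libraries against 6) and striatum (red, 8 against 7), with the edgeR estimate as a point and its standard error as a bar; open points are members under the filter (Syt10 in frontal cortex, Cplx3 in striatum), taken from the fit without it. Most points lie close to 0 in both regions, and the widest striatum bars are those of Cplx3, Doc2a, Stx1a and Syt17.

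Paralog ratios did not separate the genotypes. In frontal cortex 0 of 32 pairs passed after adjustment and 2 had an unadjusted p under 0.05 in exact permutation tests (6 against 6), Syn1 to Syn3 (difference -0.10, exact p = 0.0173, adjusted p = 0.346) and Unc13a to Unc13b (-0.10, exact p = 0.0216, adjusted p = 0.346), followed by Syn2 to Syn3 (-0.07, exact p = 0.0606). In striatum 0 of 32 passed and 1 had an unadjusted p under 0.05 (8 against 7), Rab3a to Rab3c, with mean log2 ratios of -0.07 ± 0.299 (SD, n = 7) in wild-type and -0.34 ± 0.167 (SD, n = 8) in Igf2enh-/- mice (exact permutation p = 0.00901, adjusted p = 0.288). Without library 20 this difference went from -0.27 to -0.16 (exact permutation p = 0.0333, adjusted p = 0.947). Bsn to Pclo (-0.10, exact p = 0.0841) and Rab3a to Rab3b (-0.10, exact p = 0.109) came next. The largest difference of any pair by genotype was 0.40 in frontal cortex and 0.34 in striatum, against 6.05 between regions. Among the related genes, 0 of 67 passed for genotype in frontal cortex and 0 in striatum in edgeR's quasi-likelihood test, against 0.38% and 0.036% of all genes, with 6 and 3 at an unadjusted p under 0.05 (background 13.5% and 10.0%).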

How the data were processed

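The authors used Trim Galore 0.5.0 to trim single-end reads of ribosome-depleted RNA and STAR to map them to GRCm38, and deposited raw counts per GENCODE gene, in 1 table for each region. The strand setting of the counting is not given in the sources used here. Both tables were joined by gene identifier, and groups were taken from the sample titles. Counts were analysed with edgeR 4.0.16 (TMM normalization, quasi-likelihood test, Benjamini-Hochberg adjustment over all genes tested) in R 4.3.3. Regions were compared over all 27 libraries in a model of the 4 groups and sex, as the mean of both genotypes, with the spread shared by all groups and genes kept at a mean of at least 1 CPM. The model takes libraries as independent, although some frontal cortex and striatum libraries may come from the same mouse. Genotypes were compared within each region with sex as a covariate, over genes that reached 1 CPM in each library. CPM per kilobase used the union of exons. Gene lengths and exon overlaps came from an earlier GENCODE release than the one the authors used for the counts. Paralog ratios were log2 ratios of counts with 0.5 added, compared by two-sided permutation tests (100000 resamples between regions, exact within a region). Replicates are separate libraries, and p-values measure the spread between them. Alternatives were limma-voom (limma 3.58.1), DESeq2 1.42.0 and the likelihood ratio test of edgeR, other scalings and filters, single sexes and genotypes, and leaving out each library. The code was tested on simulated data. Promoter sequences came from RefSeq tables of GRCm38.p6. Marker sums are over whole lists, of which not every gene is reported by name here. The members and lists were chosen with earlier results of these data known. Library ranges are given for members at least 2-fold apart between regions and for the 5 of smallest p in each genotype comparison, and the other members by level or fold change. Related genes are named where at least 2-fold apart, and pairs where at least 1 log2 unit apart or among the 3 of smallest p by genotype.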

Additional observations from a re-analysis of the deposited data

Results flagged for a closer look

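Of 180 group values examined (25 members and 20 pairs in 4 groups), 14 had a highest or lowest library that stood apart from the rest of its group by the Dixon gap test, and chance flags about 1 in 20 groups. Library 20 (wild-type striatum) gave 5 of them. Vamp1 was 196 CPM there against 46.7 to 76.4 CPM in the other wild-type striatum libraries, Rims3 was 255 CPM against 85.3 to 111 CPM, and Rab3c was 243 CPM against 349 to 409 CPM. The log2 count ratio of Rab3a to Rab3c was 0.60 in library 20 against -0.25 to -0.11, and that of Rims2 to Rims3 was -1.63 against -0.57 to -0.09. Library 20 also held the highest cortical projection neuron marker sum (1274 CPM) and the lowest medium spiny neuron marker sum (3759 CPM) in striatum.

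Library 23 (Igf2enh-/- striatum) gave 4, each the highest of its group. Sv2b was 298.6 CPM there against 197 to 229 CPM in the others, Snap25 was 1981 CPM against 1434 to 1545 CPM, Stx1a was 128 CPM against 39.8 to 73.0 CPM, and Rph3a was 390.5 CPM against 286 to 335 CPM. Its cortical projection neuron marker sum (959 CPM) was the highest of the Igf2enh-/- striatum libraries. The part of that marker sum in these values was not tested.

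In frontal cortex, library 1 (Igf2enh-/-) had the lowest Sv2c (28.6 CPM against 38.8 to 42.7 CPM) and the highest log2 ratio of Sv2b to Sv2c (4.39 against 3.82 to 4.04). Rims3 was 349.6 CPM in library 7 (Igf2enh-/-) against 258 to 289 CPM, and Syt11 was 807 CPM in library 10 (wild-type) against 829 to 842 CPM. In striatum, library 19 (Igf2enh-/-) had a log2 ratio of Syt1 to Syt2 of 3.70 against 2.95 to 3.23.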

How the results depend on the processing

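No paired analysis was possible because each library carries its own number, from 1 to 27, none occurs in 2 groups, and the labels do not say which libraries share a mouse. Of 470 alternative counts, 467 stayed within 1.5 times the main count. The 3 others arose in the genotype comparison of frontal cortex. There 1 member (Syt6) passed without the filter on low counts, and 1 related gene (Ppfia4, log2 fold change -0.18) passed under DESeq2 and without the filter. Over all genes, 459 of 33060 passed without the filter and 242 of 13936 under DESeq2, against 53 of 13936 in the main fit. For regions, 2330 of 2376 alternative fold changes kept their direction and their side of the threshold. Members near 0 that did not pass changed sign, namely Syt11 (0.010 with total count scaling), Rab3b (0.015 with total count scaling, 0.0016 without libraries 15, 20 and 22, and between -0.047 and 0.0054 when single libraries were left out) and Rims2 (-0.018 in wild-type libraries, and between -0.021 and 0.019 when single libraries were left out). In 19 further values Syt12 or Erc2, which did not pass in the main fit, crossed to an adjusted p under 0.05. Syt12 passed with total count scaling, in wild-type libraries alone, in females alone and without some single libraries. Erc2 passed under limma-voom and without some single libraries. Calls of Syn3, Syt3, Syt5 and Cplx3 were lost under some alternatives. The other 39 called members passed in the same direction under every alternative that tested them. These were 41, or 40 for Syt10, which was not tested where at least 1 CPM was required in every library. The count of members 2-fold lower went from 13 to 9 in males and 14 in females. The count over all genes moved the same way, from 906 of 14909 to 739 of 14889 in males and 1062 of 14902 in females. Leaving out single libraries gave between 32 and 34 lower, 9 and 11 higher, and 10 and 14 2-fold lower members, and 0 called by genotype in either region. Cplx2 to Cplx3 did not pass in wild-type libraries (1.30). Taking the longest transcript as length moved 49 of 98 levels per kilobase by more than 1 SD. Whether frontal cortex and striatum libraries share mice, which cells carry each transcript, and strand limit what these counts resolve.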
